A study of Mus musculus with 12 samples.

Results

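The step from LSK to GMP in wild type mice was followed by ATAC-seq, which cuts accessible DNA with a transposase and so reads out where chromatin is open. LSK are the Lin-/Sca-1+/c-Kit+ cells of bone marrow, a mixture of stem cells and early multipotent progenitors. GMP are granulocyte-monocyte progenitors, gated as Lin-/Sca-1-/c-Kit+/CD16/32+ cells. The comparison was chosen by its columns, the 3 WT-GMP against the 3 WT-LSK libraries, which are 6 of the 12 libraries of the series. The other 6 are LSK and GMP of UREd/d mice, in which the upstream regulatory element (URE) of Spi1 is deleted, and Spi1 codes for PU.1, a transcription factor of blood cells. All mice were young adult littermates on a C57BL/6 background, WT mice carried no engineered allele, no mouse was treated, and c-Kit+ cells were enriched on beads before the sort. Each group had 3 mice, the number of sorted cells varied with what was available, and both gates hold mixtures of cells. In such bulk libraries, fewer cells of a type and less open chromatin per cell cannot be told apart.

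Blood stem cells are kept by factors such as HLF, MEIS1, MECOM, PRDM16 and the HOX proteins, which are turned down as cells commit. The granulocyte-monocyte fate is set by PU.1 with C/EBPα, which precedes C/EBPε and GFI1 on the neutrophil path and IRF8 and KLF4 on the monocyte path, and GMP are the cells that make the primary granule proteins myeloperoxidase, neutrophil elastase, proteinase 3 and cathepsin G. C/EBP proteins bind as dimers to a palindromic site, and HOX proteins bind together with MEIS1 to a composite site.

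The sequences below were read from the GRCm38 genome (plus strand) because, of the motifs searched, HOX-MEIS letters had the largest share of regions that closed, and C/EBP letters the largest share that opened after the rarer PAR bZIP letters. The first set is taken from the regions with the smallest p at the myeloid genes listed below that opened and held at least 2 copies of the C/EBP letters TTGCNNAA. Capitals mark the copies, on either strand.
S100a9 (chr3:90686865-90686948, intergenic): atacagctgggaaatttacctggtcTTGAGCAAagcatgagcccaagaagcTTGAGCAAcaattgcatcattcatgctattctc
F13a1 (chr13:37121709-37121761, intergenic): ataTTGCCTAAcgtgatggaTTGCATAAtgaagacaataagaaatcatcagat
Csf3r (chr4:126017785-126017891, intergenic): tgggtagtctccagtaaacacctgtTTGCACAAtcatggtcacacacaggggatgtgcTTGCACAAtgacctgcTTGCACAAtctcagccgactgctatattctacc
Irf8 (chr8:120741103-120741206, in an exon of a non-coding Irf8 transcript): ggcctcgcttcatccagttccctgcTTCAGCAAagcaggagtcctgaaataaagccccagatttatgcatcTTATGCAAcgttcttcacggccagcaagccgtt

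The next sequence shows the PU.1 letters GAGGAAGT just upstream of the start of Elane, the gene of neutrophil elastase.
Elane (chr10:79886215-79886246, promoter): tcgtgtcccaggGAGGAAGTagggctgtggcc

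The last set shows the HOX-MEIS letters TGATTTAT in capitals, as written or as the other strand reads. The first of these lies in Mecom and was the only closing region of the stem cell gene lists that held them, and the others are the closing regions with the smallest p among all that held them, each named by its nearest gene.
Mecom (chr3:30330604-30330661, intron): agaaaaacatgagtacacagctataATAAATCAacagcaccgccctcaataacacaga
Gnas (chr2:174242599-174242656, intergenic): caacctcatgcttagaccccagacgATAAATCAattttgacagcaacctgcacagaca
Gpr84 (chr15:103295928-103295985, intron): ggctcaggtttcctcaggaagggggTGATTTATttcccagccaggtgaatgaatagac
Cyth4 (chr15:78624680-78624737, intergenic): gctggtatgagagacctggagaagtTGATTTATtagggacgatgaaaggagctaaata
Rab11fip4 (chr11:79800302-79800359, intron): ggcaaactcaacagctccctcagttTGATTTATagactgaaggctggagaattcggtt

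Counts were given for 121336 regions. Total counts were 23072701 to 46320787 in the WT-LSK libraries and 24225870 to 45780754 in the WT-GMP libraries, so that 3 counts stood for 0.0603 to 0.126 CPM (counts scaled to library size with edgeR's TMM). Across regions, which are not independent replicates, log2 CPM correlated at 0.972 to 0.976 among WT-LSK and at 0.940 to 0.965 among WT-GMP libraries. WT-GMP replicate 3 stood apart from the other two: its correlation with the WT-LSK libraries was 0.805 to 0.827, against 0.685 to 0.731 for WT-GMP replicates 1 and 2. It had the lowest of the 3 WT-GMP values in 74.4% of the regions that opened and the highest in 67.5% of those that closed, so the main counts below are also given without it.

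Markers of the gates were read as a description, as they cannot test the labels here. Fcgr2b, which encodes a receptor that the CD16/32 antibody binds, had its leading region 19.5 kb from its start site, with 0.105, 0.0408 and 0.101 CPM in WT-LSK against 4.52, 3.46 and 2.93 in WT-GMP. "Leading region" stands here and below for the region of a gene with the smallest p in this comparison, so its value is a description. Of all 13 regions of Fcgr2b 8 opened and none closed, with a median log2 fold change of 1.42. Kit, whose product both gates require, had similar promoter values in both groups, with 37.3, 39.1 and 38.0 CPM in WT-LSK against 37, 37.5 and 43.9 in WT-GMP. These values overlapped, with a log2 fold change of 0.05 (SE 0.08, adjusted p = 0.624 by edgeR), a value whose sign turned with the scaling. Ly6a, which encodes Sca-1, and Fcgr3 had no region assigned to them.

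Chromatin opened and closed at many loci, with the larger changes on the opening side. Calls needed an adjusted p under 0.05 by the quasi-likelihood test of edgeR and a level that differed more than 2-fold. By this rule 25450 regions were higher in WT-GMP (21.0% of all regions) and 20428 were lower (16.8%), which makes 37.8% in either direction. The median log2 fold change was 2.12 in the regions that opened, -1.62 in those that closed and -0.01 over all regions. A log2 change beyond 3 was seen in 6722 opening and 1619 closing regions, and a change beyond 5 in 587 and 56. Opening regions made up 55.5% of the calls. Without WT-GMP replicate 3 there were 24685 opening and 25938 closing regions, 48.8% opening. Leaving out each other WT library in turn gave 50.7% to 53.4% opening. The direction that held more regions thus turned only without WT-GMP replicate 3, but the share fell whichever WT library was left out. A further 25519 regions had an adjusted p under 0.05 with a smaller fold change, so that 58.8% of all regions passed on p alone. Values on both sides of the fold threshold were continuous, with log2 fold changes of 1.00001 just inside it and 0.999978 just outside.

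Opening regions often started from little signal. Their median level was 0.593 CPM in WT-LSK against 2.88 in WT-GMP, and 44.9% of them lay under 0.5 CPM in WT-LSK. Regions that closed had a median of 2.78 CPM in WT-LSK against 0.841 in WT-GMP, and 31.1% ended under 0.5 CPM. A change between under 0.5 CPM and at least 4 CPM was seen in 1218 opening and 147 closing regions. In 97.8% of the opening and 97.7% of the closing regions the 3 libraries of one group lay wholly on one side of the other 3, against 64.9% of all regions. The low end carried many calls: with only regions at a mean of 2 CPM or more, 11497 opened and 10761 closed.

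**Figure D1:**
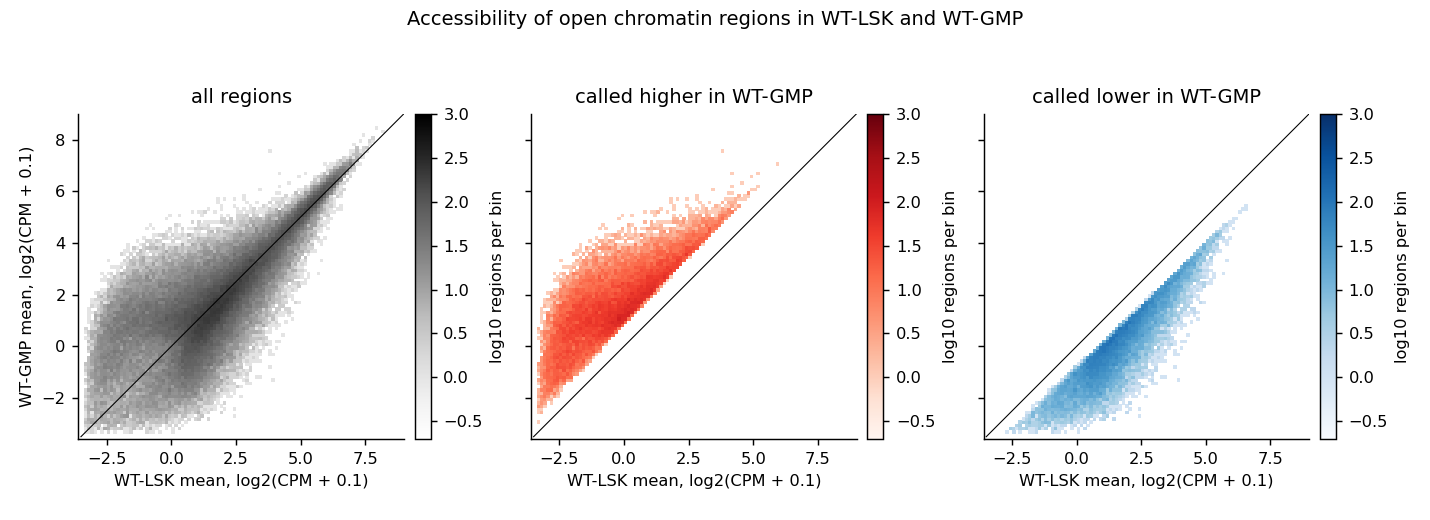
Mean accessibility of each region in WT-LSK (x axis) and WT-GMP (y axis), both as log2(CPM + 0.1) over 3 libraries, for all 121336 regions, the 25450 called higher and the 20428 called lower in WT-GMP. Colour gives the number of regions per bin on a log10 scale and the line marks equal levels. The higher regions reach far to the left, where WT-LSK has almost no signal.

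The 10 opening regions with the smallest p are described next, taken by rule from regions whose groups do not overlap. The region 3.25 kb upstream of Osm, the gene of the cytokine oncostatin M, had 4.80, 6.20 and 5.29 CPM in WT-LSK against 27.7, 25.6 and 23.3 in WT-GMP (log2 fold change 2.24, SE 0.11, adjusted p = 2.85e-08, edgeR). The promoter of Slc11a1, which encodes the NRAMP1 metal transporter of phagocytes, had 0.446, 0.490 and 0.442 CPM in WT-LSK against 15.4, 14.3 and 11.6 in WT-GMP (log2 fold change 4.91, SE 0.27). Signal at Slc11a1 was thus almost absent from WT-LSK, whereas the Osm region was already open there. A region 17.3 kb from Cd300a, which encodes an inhibitory receptor of myeloid cells, had a log2 fold change of 1.82 (SE 0.09), and an intronic region of Tgm3, a transglutaminase gene, one of 3.53 (SE 0.18). The remaining regions of the first 10 lay nearest to Gas7, Vapa, Sypl, Cables1, Kcnrg and Tjp1, with log2 fold changes of 2.24 to 5.

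In the closing direction 7 of the 10 regions with the smallest p lay in introns or exons. An intronic region of Arhgef10, a guanine nucleotide exchange factor gene, had 31.8, 29.7 and 28.7 CPM in WT-LSK against 2.80, 2.62 and 3.92 in WT-GMP (log2 fold change -3.26, SE 0.17, adjusted p = 2.85e-08, edgeR). A region in an intron of Wnt9a, a WNT ligand gene, fell from 28.8, 24.1 and 24.3 CPM to 1.80, 1.99 and 3.34 CPM (log2 fold change -3.41, SE 0.19). The same rule chose these regions, so that their groups had to lie apart. The promoters of Fndc11 (-1.64, SE 0.09) and of the potassium channel gene Kcnf1 (-2.95, SE 0.17) were 2 of these 10 regions, and those nearest to Ndufa9, Sned1, Nup214, Tcof1 and Vamp1 had log2 fold changes of -4.88 to -2.88.

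The largest fold changes among regions that reached a mean of 4 CPM came from loci that were near 0 in one group. A region 12.2 kb upstream of Eif4g2, a translation factor gene, had 0, 0.0816 and 0.0804 CPM in WT-LSK against 7.74, 7.68 and 4.59 in WT-GMP (log2 fold change 6.88, SE 0.58). At the other end, a region 77.1 kb upstream of Hs3st1, a heparan sulfate sulfotransferase gene, had 4.49, 4.90 and 7.16 CPM in WT-LSK against 0, 0.0839 and 0.0691 in WT-GMP (log2 fold change -6.45, SE 0.43). With so few counts in the low group the fitted fold of these regions is imprecise. The same rule gave regions nearest to Bbs9, Nedd9, Agtpbp1 and Ak6 for opening, at 6.45 to 6.72, and to Opcml, 2610301B20Rik, Pros1 and Adgrl3 for closing, at -5.88 to -5.20.

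Few promoter regions were called. Of 19390 regions within 500 bp of a protein-coding start site, 6.32% opened and 7.14% closed, against 24.5% and 19.1% of 54034 intronic and 23.4% and 18.7% of 40386 intergenic regions. Exonic regions were at 20.5% and 15.9% of 7526. CpG-rich promoters, those with at least 5 CpG per 100 bases, had few calls: of 11250 such promoters 47 opened and 343 closed, whereas of the 8140 others 1178 opened and 1041 closed. With distance from a start site the share that opened was nearly level and the share that closed was larger. It was 24.1% opening and 14.1% closing at 0.5 to 10 kb, 23.9% and 18.6% at 10 to 50 kb, 24.0% and 22.9% at 50 to 100 kb, and 22.1% and 29.5% beyond 100 kb.

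Base composition moved with the calls as well. In 4 equal groups of regions from the lowest to the highest GC content, the share that opened was 30.1%, 26.1%, 20.5% and 7.30%, and the share that closed was 19.1%, 17.7%, 18.0% and 12.5%. With offsets for GC content in each library these shares were 27.9%, 23.9%, 20.6% and 8.74% for opening and 22.2%, 20.4%, 18.1% and 10.4% for closing. Opening regions had a median GC content of 47.6%, closing regions of 49.0% and the rest of 50.9%.

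Called regions that were neighbours mostly shared their direction. Of 16796 pairs of consecutive called regions within 10 kb of each other, 8300 were both higher, 4117 were both lower and 4379 went in opposite directions, so that 73.9% had 1 direction. As 55.5% of all calls were opening, many pairs would share a direction whatever their distance.

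The letters of transcription factor sites were searched on both strands in the 300 bases around the centre of every region, and a match is a description of the sequence, not a site of binding. The C/EBP letters TTGCNNAA stood out for opening. They were held by 16.4% of all regions, by 33.1% of the opening and by 10.6% of the closing ones. Of the 19930 regions that held them 42.3% opened and 10.9% closed, and their median log2 fold change was 0.65. More copies went with more opening: of the 101406 regions with no copy 16.8% opened, of 17666 with 1 copy 39.7%, of 2067 with 2 copies 61.8%, and of 197 with at least 3 copies 74.1%. The share that closed was 18.0%, 11.5%, 6.34% and 3.05% in the same order. Without promoters the shares of C/EBP regions were 44.1% and 11.2%, with GC content offsets 41.0% and 12%, and without WT-GMP replicate 3 41.8% and 13.8%.

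The regions whose sequences are shown above follow this pattern by choice. The S100a9 region with a pair of copies had 0.472, 0.367 and 0.523 CPM in WT-LSK against 8.49, 7.22 and 4.63 in WT-GMP. The Csf3r region with its 3 copies had 0.236, 0.530 and 0.221 CPM against 9.71, 8.60 and 6.06 CPM. The F13a1 region had 1.15, 0.530 and 0.704 CPM against 12.4, 10.3 and 9.45 CPM. No WT-GMP library came near the WT-LSK range at any of these. Of 38 leading regions at the myeloid genes listed below that opened, 18 held the C/EBP letters and 5 held at least 2 copies.

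The HOX-MEIS letters TGATTTAT went with closing. They were rare, in 1.12% of regions, and of the 1365 regions that held them 38.1% closed and 13.8% opened, with a median log2 fold change of -0.57. In the 1123 of these that lacked C/EBP letters 40.6% closed and 10.5% opened, and in the 242 that held both 26.4% closed and 28.9% opened. The Mecom region shown above had 7.64, 8.65 and 9.17 CPM in WT-LSK against 2.76, 2.16 and 3.71 in WT-GMP (log2 fold change -1.56, SE 0.22). The Gnas region had 9.71, 7.59 and 7.18 CPM against 0.293, 0.168 and 0.346 CPM (-4.94, SE 0.33). The groups were apart in both, and the Gpr84, Cyth4 and Rab11fip4 regions had log2 fold changes of -4.13, -2.56 and -3.92.

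Of the 10552 regions with the PU.1 letters GAGGAAGT, which 8.70% of regions held, 23.7% opened and 13.4% closed. Without promoters these shares were 24.5% and 13.9%, against 23.8% and 18.7% of all regions that were not promoters. In the 9026 PU.1 regions with no C/EBP letters 21.2% opened and 14.0% closed. Of all regions with no C/EBP letters 16.8% opened and 18.0% closed. The MYB letters AACNGTT (5.62%) had 28.8% opening and 16.5% closing, or 22.9% and 18.5% in the 5393 regions with no C/EBP letters. The KLF letters GGGTGTGG (3.59%) had 23.0% and 12.8%. The letters of PAR bZIP factors such as HLF, TTACGTAA, were held by only 214 regions, of which 52.3% opened and 4.67% closed, without promoters 57.8% and 4.81%. In the 164 of these regions with no copy of TTGCNNAA the shares were 50.6% and 4.27%. TTACGTAA has an A where TTGCNNAA has its G and otherwise fits it, so this split does not separate these kinds of site.

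The remaining letters are given beside the 21.0% and 16.8% of all regions. Of regions with the RUNX letters AACCACA, which 14.4% of regions held, 21.1% opened and 22.0% closed. For the GATA letters AGATAAG, held by 4.26%, these shares were 21.6% and 20.9%. The IRF motif, a repeat of GAAA with any 2 bases between the copies, was held by 4.93% and had 20.5% and 21.1%. Regions with the AP-1 letters TGANTCA, 12.1% of all, had 24.0% and 20.3%. The E-box CAGCTG, in 20.5% of regions, had 19.1% and 19.8%. The ETS letters CCGGAAGT, which end in the same letters as those of PU.1, were held by 1.22% of regions and had 10.3% and 7.44%, or 20.2% and 14.4% in the 693 that were not promoters. Regions with the CTCF motif (3.75%) had the smallest share of calls, with 2.79% opening and 6.09% closing of 4552. Without WT-GMP replicate 3 the latter was 12.8%, a setting in which closing regions of all kinds numbered 25938 in place of 20428. Regions with none of the motifs had 16.4% and 15.8%.

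**Figure D2:**
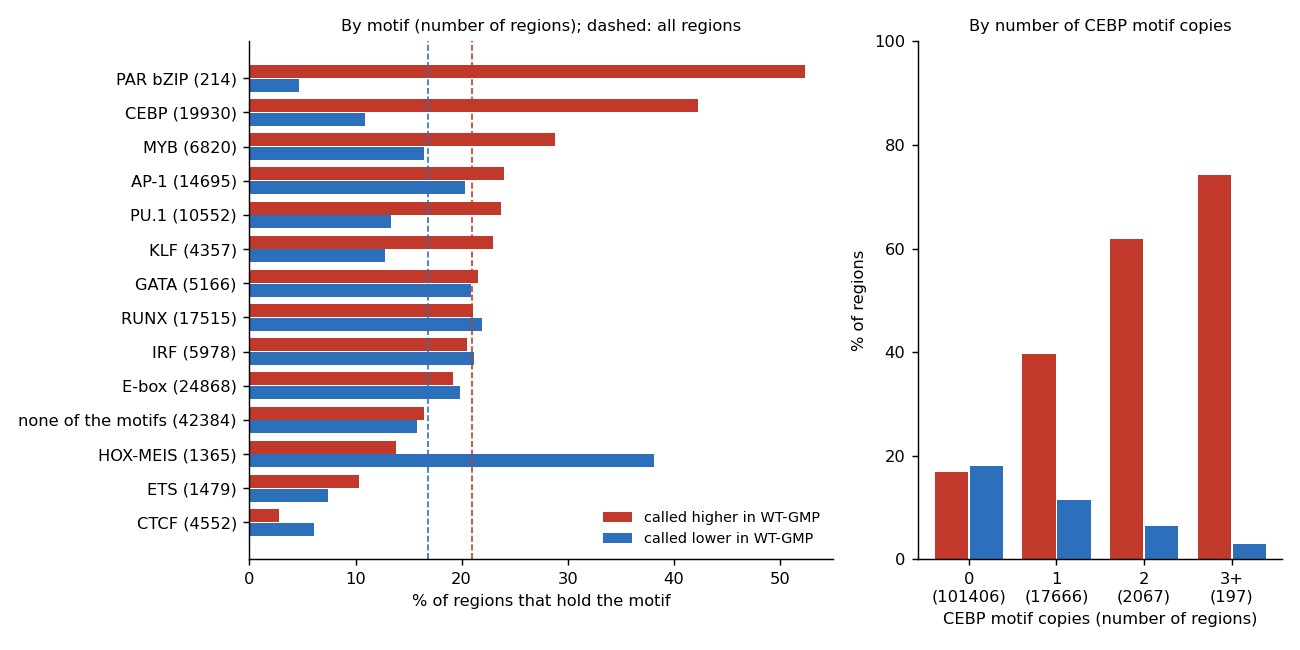
Left, the percentage of regions holding each motif that were called higher (red) or lower (blue) in WT-GMP, with the number of regions in brackets and dashed lines at 21.0% and 16.8% for all regions. Right, the same by the number of C/EBP motif copies: the red bars climb from 16.8% with no copy to 74.1% with 3 or more, and the blue bars shrink.

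Gene lists were read through regions assigned to the nearest protein-coding start site within 100 kb, of which 20.9% opened and 15.4% closed among 108863. The nearest gene need not be the one a region acts on. Lists are described by counts and medians only. Without WT-GMP replicate 3 closing regions numbered 25938 in place of 20428 over all regions, and the median of all regions was -0.13. Without each other WT library in turn this median was -0.0975 to -0.0676. Closing shares given below without WT-GMP replicate 3 stand beside this general rise in closing regions.

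Primary granule genes had the largest share of opening regions among the 13 lists. Of their 69 regions 39 opened and 3 closed, and the median log2 fold change was 1.20. All 9 genes had more opening than closing regions, and 11 of 17 promoter regions opened, against 6.32% of all promoter regions. The list also holds 2 genes of membrane proteins rather than granule proteins, Ms4a3 (5 of 6 regions opened) and Clec12a (5 of 9). Mpo, the gene of myeloperoxidase, had its leading region 3.07 kb along the gene from its first annotated start. It fell in the promoter class through another annotated start. It had 2.81, 1.55 and 2.13 CPM in WT-LSK against 48.4, 32.1 and 25 in WT-GMP (log2 fold change 3.99, SE 0.28, adjusted p = 7.42e-08, edgeR). The region 0.737 kb from the first start was already open in WT-LSK, with a mean of 18.4 CPM against 107 CPM in WT-GMP (2.53). All 5 Mpo regions opened. They include one centred 1.81 kb downstream of its nearest annotated start, and 11.3 kb from the first, that went from 17.8, 13.4 and 12.1 CPM to 238, 181 and 166 CPM. At the Elane promoter shown above the values were 1.18, 1.51 and 1.09 CPM in WT-LSK against 12.5, 16.9 and 12.3 in WT-GMP (3.49, SE 0.24). Its neighbour Prtn3, the proteinase 3 gene, was already open in WT-LSK, with 18.1, 17.5 and 18.4 CPM against 68.7, 57.4 and 53.1 CPM at its leading region (1.73, SE 0.11). The promoters of Ctsg (cathepsin G) and Ms4a3, a membrane protein gene used to mark GMP, had log2 fold changes of 3.86 (SE 0.25) and 4.65 (SE 0.31). All 7 regions of Ctsg opened. At these loci the groups were apart by far more than the spread among replicates.

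Genes of later neutrophil stages had opening regions too. Of 51 regions assigned to 9 genes, 24 opened and 2 closed, with a median log2 fold change of 0.93, and without WT-GMP replicate 3 the closing share was 5.88% in place of 3.92%. Both closing regions were promoters, of 11 promoter regions in all, of which 6 opened. The promoter of Camp, the cathelicidin gene, had 0.499, 0.571 and 0.442 CPM in WT-LSK against 9.16, 10.5 and 5.35 in WT-GMP (4.07, SE 0.30), and that of Ngp, the neutrophilic granule protein gene, 0.210, 0.0408 and 0.121 CPM against 2.43, 3.29 and 1.11 CPM (4.07, SE 0.45). Levels at Ngp thus stayed low in absolute terms. The promoters of Mmp8 and S100a8 had log2 fold changes of 2.71 (SE 0.21) and 2.31 (SE 0.26). Ltf, the lactoferrin gene, had 1 opening and 1 closing of 5 regions, and its promoter went the other way, with 6.88, 8 and 8.28 CPM in WT-LSK against 2.59, 2.92 and 3.41 in WT-GMP at its promoter (-1.37, SE 0.19, adjusted p = 1.79e-05, edgeR).

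Monocyte and dendritic cell genes opened at many regions. Of 105 regions 51 opened and 6 closed (median log2 fold change 0.78), and 9 of 10 genes had more opening than closing regions. The exception was Siglech, a marker of plasmacytoid dendritic cells. The closing share of the list was 5.71%, with 10.5% without WT-GMP replicate 3 and 1.35% when regions were assigned within 50 kb. Ccr2, the receptor for CCL2, had 0.262, 0.326 and 0.181 CPM in WT-LSK against 4.81, 3.99 and 3.76 in WT-GMP at its promoter (4.07, SE 0.31). The promoter of Ly6c2, which encodes a Ly6C antigen, had 4.96, 6.57 and 4.36 CPM against 30.8, 27.4 and 22.8 CPM (2.36, SE 0.26). All 5 regions of Ly6c2 opened, as did 12 of 26 at F13a1 (coagulation factor XIII A), 11 of 26 at Ly86, which encodes the TLR-associated protein MD-1, and 9 of 15 at Csf1 (M-CSF).

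Myeloid growth factor receptor genes had 24 opening and 3 closing of 64 regions, with a median of 0.41, and the closing share was 4.69%, or 7.81% without WT-GMP replicate 3. The list includes Fcgr2b, the Fc receptor gene of the gate, with 8 opening and no closing of 13 regions. Csf3r, the receptor of G-CSF, had a leading region at 4.73 (SE 0.38), shown above. The leading region of Csf2rb, the shared beta chain of the GM-CSF receptor, had 0.315, 0.367 and 0.0402 CPM in WT-LSK against 6.53, 4.66 and 2.74 in WT-GMP (4.41, SE 0.50). Csf1r, the receptor of M-CSF, had a promoter at 4.22, 3.83 and 3.44 CPM against 12.9, 12.1 and 9.17 CPM (1.57, SE 0.30). The leading region of Il6ra, the IL-6 receptor gene, closed at -2.08 (SE 0.28), although 4 of its 11 regions opened and 1 closed. Csf2rb2, also on the list, went the other way from Csf2rb, with no opening and 2 closing of 5 regions (median -0.39). Of the 7 genes with a region 5 had more opening and 1 had more closing regions. Csf2ra had no region assigned, and Il3ra had no call in 5 regions.

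Among myeloid transcription factor genes 40 of 176 regions opened (22.7%) and 23 closed (13.1%), near the 20.9% and 15.4% of all assigned regions. Of their 24 promoter regions 2 opened and none closed. Over all promoter regions 6.32% opened and 7.14% closed, so few promoter calls are no trait of this list. Cebpa is the gene of C/EBPα. Its promoter was open in both groups, with 75.7, 78.7 and 70.4 CPM in WT-LSK against 136, 106 and 109 in WT-GMP (log2 fold change 0.64, SE 0.08, adjusted p = 1.01e-05, edgeR), a difference under 2-fold. A region 33.0 kb downstream had 0.315, 0.326 and 0.221 CPM against 9.50, 5.37 and 4.79 CPM (4.52, SE 0.34). The strong region centred 37.8 kb downstream, at the place of a known Cebpa enhancer and chosen after its values were seen, had 33.2, 34.5 and 37 CPM against 63.9, 54.2 and 58.4 CPM (0.75, SE 0.10), so it was open in WT-LSK already. Within 150 kb of the start of Cebpa 14 of 43 regions opened and 1 closed.

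Cebpe, the gene of the later neutrophil factor C/EBPε, had one of the 2 promoters of the list that opened, with 5.59, 4.41 and 6.76 CPM in WT-LSK against 37.5, 30.0 and 22.1 in WT-GMP (2.40, SE 0.22). Gfi1, a zinc finger repressor of the neutrophil path, had a leading region 18.1 kb from its start at 0.184, 0.204 and 0.221 CPM against 9.08, 5.25 and 3.73 CPM (4.84, SE 0.41). Irf8, needed for monocytes and dendritic cells, had 0.0787, 0.204 and 0.0804 CPM against 4.27, 3.76 and 1.52 CPM at the region shown above (4.82, SE 0.50), while its promoter stayed under 2-fold (0.48, SE 0.12). In all of these WT-GMP was above WT-LSK in every library. Klf4, another monocyte factor, had no opening and 4 closing of 14 regions, and its leading region fell from 3.44, 3.35 and 3.42 CPM to 0.335, 0.105 and 0.622 CPM (-3.26, SE 0.41). Zeb2, with 7 closing and 3 opening of 27 regions, and Egr1, with 2 and 1 of 12, also had more closing regions. The other 9 genes of the list had more opening ones. The promoter of Cebpd was at 0.82 (SE 0.08), under 2-fold.

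Spi1 itself had 6 opening and no closing of 13 regions. Its main promoter did not differ detectably, with 36.6, 34.1 and 34.8 CPM in WT-LSK against 33.8, 37.1 and 36.1 in WT-GMP (log2 fold change 0.02, SE 0.22, adjusted p = 0.944, edgeR). The sign of this value turned with the scaling. The upstream regulatory element, which is intact in these mice, had 36.0, 39.7 and 42.4 CPM against 46.2, 43.6 and 41.6 CPM (0.15, SE 0.16, adjusted p = 0.439, edgeR), and the groups overlapped. With GC content offsets this log2 fold change was 0.34, and with the replicate block as well it was 0.33 (adjusted p = 0.0252, edgeR), still under 2-fold. An intronic region 6.36 kb upstream of the nearest annotated start opened from 0.525, 0.653 and 0.965 CPM to 11.9, 8.71 and 3.53 CPM (3.44, SE 0.40).

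**Figure D3:**
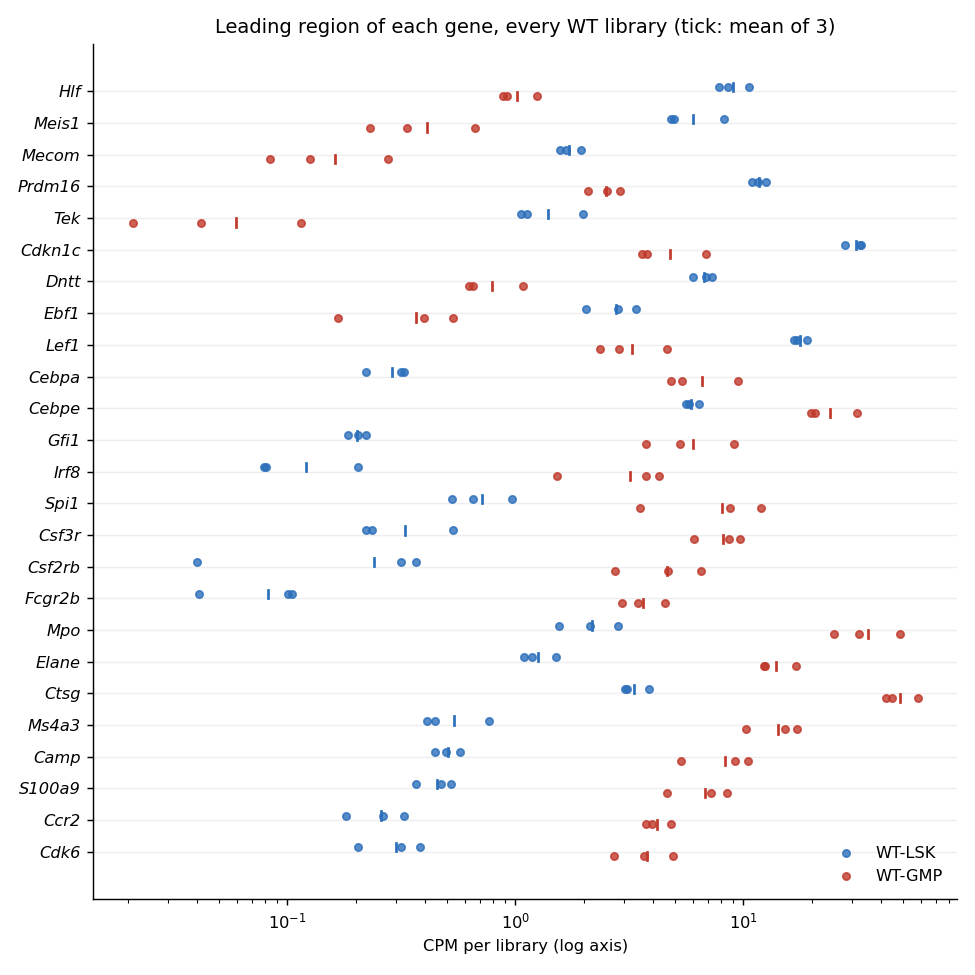
CPM of the leading region (smallest p) of 25 genes, a choice from the lists, in each of the 3 WT-LSK (blue) and 3 WT-GMP (red) libraries on a log axis, with ticks at the means. Regions of stem and lymphoid genes, from Hlf to Lef1, are higher in WT-LSK, and those of myeloid genes and Cdk6 are higher in WT-GMP, with no overlap in any row, as the choice by p favours. Leading regions not drawn went the other way at the stem cell genes Erg (4.33), Runx1 (3.88) and Lmo2 (4.27) and at the myeloid genes Klf4 (-3.26), Il6ra (-2.08) and Ltf (-1.37). Lymphoid genes were divided, with 7 that had more closing and 5 that had more opening regions. The latter include Satb1 (7 opening of 18), Ikzf1 (5 of 21) and Notch1 (5 of 23), which are not drawn. Kit, a stem cell gene not drawn, had 7 opening and no closing of 27 regions.

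Stem cell transcription factor genes closed more than they opened, but not uniformly. Of 391 regions assigned to 16 genes 101 closed and 57 opened, with a median log2 fold change of -0.40, and 9 genes had more closing and 4 more opening regions. Prdm16, a zinc finger factor needed by stem cells, was the clearest, with 24 closing and 1 opening of 37 regions. Its leading region had 10.9, 11.6 and 12.6 CPM in WT-LSK against 2.51, 2.08 and 2.88 in WT-GMP (-2.23, SE 0.20). Hlf, which encodes a bZIP factor of stem cells, had 10 closing and no opening of 24 regions, and its leading region had 8.53, 7.79 and 10.6 CPM against 0.920, 0.881 and 1.24 CPM (-3.13, SE 0.24). Mecom, whose product EVI1 sustains stem cells, had 19 closing and 3 opening of 40. Meis1, the HOX partner, had 6 closing of 23, with a leading region at -3.84 (SE 0.36). For each of these leading regions all WT-GMP libraries lay below all WT-LSK libraries.

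The promoters of Meis1, Prdm16, Hlf and Mecom stayed under 2-fold. The Meis1 promoter had 49.2, 54.9 and 49.7 CPM in WT-LSK against 32.3, 26.7 and 34.5 in WT-GMP (-0.72, SE 0.11, adjusted p = 5.87e-05, edgeR), and the promoters of Prdm16, Hlf and Mecom were at -0.61 (SE 0.10), -0.52 (SE 0.15) and -0.19 (SE 0.06). The leading regions of these genes were chosen for their p, and the median over all regions of each gene was -0.62 for Meis1, -1.49 for Prdm16, -0.85 for Hlf and -0.94 for Mecom. At Hoxa9 the promoter was itself the leading region, at -0.77 (SE 0.15), with a median of -0.32 over its 6 regions. Of 44 promoter regions of this list 4 closed and 1 opened, beside 7.14% closing and 6.32% opening over all promoter regions.

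Other genes of the list had more opening than closing regions. Erg, an ETS factor gene, had 12 opening and 2 closing of 43 regions, and its leading region rose from 0.761, 1.14 and 1.11 CPM to 20.0, 23.5 and 16.9 CPM (4.33, SE 0.26). Runx1 had 20 opening and 7 closing of 54, with a leading region at 3.88 (SE 0.30), and Lmo2 had 7 and 6 of 37, with a leading region at 4.27 (SE 0.30). These loci thus held regions of both directions. Gata2 had 4 opening and no closing of 14 regions, and its leading region was at -0.95 (SE 0.11), just under 2-fold, and past 2-fold without WT-GMP replicate 3 (-1.13).

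Stem cell surface and signalling genes were divided, with 34 opening and 34 closing of 189 regions and a median of -0.32. The promoter of Esam, an endothelial adhesion molecule of stem cells, had 29.6, 26.0 and 34.2 CPM in WT-LSK against 12.3, 10.5 and 14.2 in WT-GMP (-1.28, SE 0.14, adjusted p = 2.03e-06, edgeR), and a weak intronic region of Tek, the angiopoietin receptor gene, was at -4.47 (SE 0.64). Cdkn1c, which encodes the cell cycle inhibitor p57 of quiescent stem cells, had 32.6, 27.9 and 32.9 CPM in WT-LSK against 3.77, 3.59 and 6.87 in WT-GMP at its leading region, which lies in an intron of Kcnq1 (-2.70, SE 0.21). Kit had 7 opening and no closing of 27 regions. Cd34 had 3 opening and 1 closing of 15, and the closing one led, at -3.29 (SE 0.47).

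Among cell cycle genes, opening regions were unevenly spread. Of 153 regions 55 opened and 7 closed, with a median of 0.47. More opening than closing regions were seen at 8 of 10 genes, while Ccnb1 and Top2a had no call. The promoters had 1 call in 18, beside 6.32% opening and 7.14% closing over all promoter regions. Cdk6, a G1 kinase gene, carried 30 of the 55 opening regions and 1 closing of its 50, and its promoter stayed under 2-fold, at 121, 120 and 116 CPM in WT-LSK against 191, 151 and 163 in WT-GMP (0.50, SE 0.08). The leading regions of Myc and Ccnd2, the cyclin D2 gene, were at 3.60 (SE 0.27) and 4.54 (SE 0.51).

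Lymphoid priming genes had 40 closing and 32 opening of 188 (median -0.13). The promoter of Dntt, which encodes the terminal transferase of early lymphoid progenitors, had 2.76, 2.49 and 1.41 CPM in WT-LSK against 0.126, 0.210 and 0.115 in WT-GMP (-3.80, SE 0.43). Leading regions of the B cell factor genes Ebf1 and Pax5 were at -2.81 (SE 0.35) and -2.57 (SE 0.35), and that of the T cell factor gene Lef1 at -2.41 (SE 0.19). Bcl11a had 9 closing and 6 opening of 34 regions. By gene the list was divided, with 7 genes that had more closing and 5 that had more opening regions. Among the latter were Satb1, with 7 opening and 2 closing of 18, Ikzf1 with 5 and none of 21, and Notch1 with 5 and 2 of 23.

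Lists of other lineages were read for cells that the gates could hold. Erythroid and megakaryocyte genes had 22 closing and 9 opening of 117 regions (median -0.29), and without WT-GMP replicate 3 the closing share was 30.8% in place of 18.8%. Nfib, a transcription factor gene on this list, held 9 of the closing regions among its 26. The summed level of all regions of this list was 987 to 1052 CPM in the WT-LSK libraries and 811 to 973 CPM in the WT-GMP libraries. The Gp9 promoter, of a platelet glycoprotein gene, was at -1.33 (SE 0.20), while the Gata1 promoter was weak and rose from 2.91, 2.98 and 3.34 CPM to 7.45, 6.67 and 7.63 CPM (1.23, SE 0.23). Mast cell, basophil and eosinophil genes had 17 opening and 10 closing of 55 regions (median -0.09), with summed levels of 260 to 287 CPM in WT-LSK and 274 to 289 CPM in WT-GMP, and an intronic region of Cpa3, the mast cell carboxypeptidase gene, at 3.19 (SE 0.46). Mitf, also a factor of other cell types, held 9 of the 17 opening regions. Both regions of Ms4a2, which encodes a chain of the IgE receptor, closed (median -1.55), and Prg2 and Prss34 had no call. The part of such cells in these results was not tested.

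Genes of tissues other than blood and housekeeping genes were read in the same way. The former had 13 opening and 8 closing of 60 regions (median 0.01), and Pecam1, an adhesion molecule gene of endothelium that blood cells express too, held 9 of the opening and 2 of the closing regions among its 22. Housekeeping genes had 5 and 3 of 50 (median 0.16), though without WT-GMP replicate 3 the closing share of all their regions was 14.0% in place of 6%. None of their 11 promoter regions was called, beside 6.32% opening and 7.14% closing over all promoter regions.

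**Figure D4:**
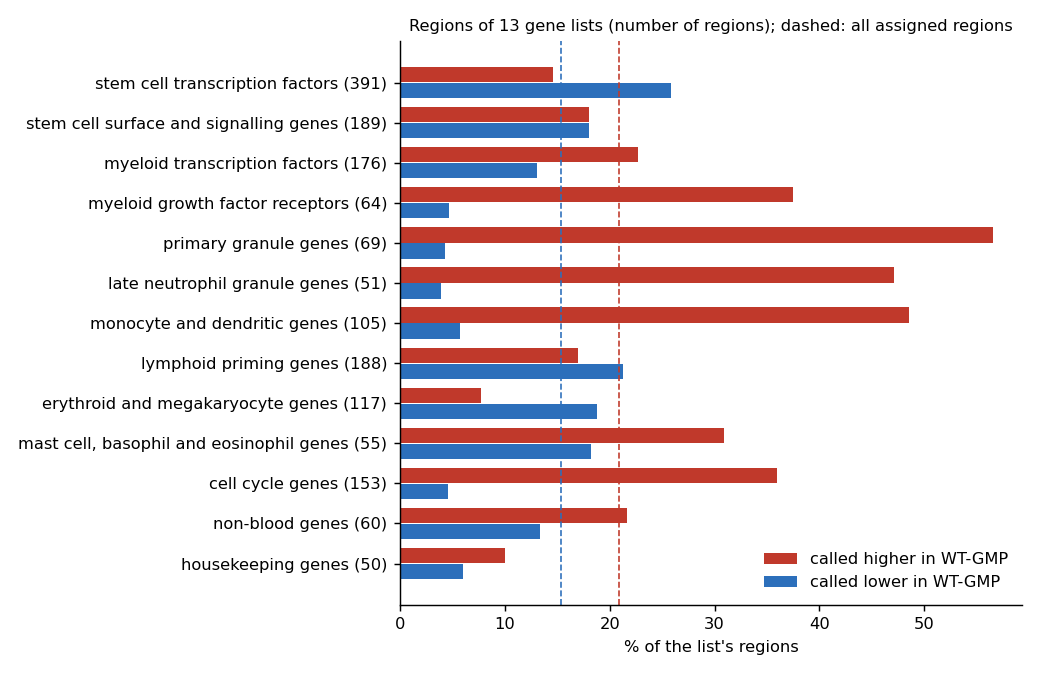
Percentage of the regions of each of 13 gene lists that were called higher (red) or lower (blue) in WT-GMP, with the number of regions in brackets and dashed lines at 20.9% and 15.4% for all regions assigned to a gene. Primary granule genes reach 56.5% higher, and the stem cell transcription factors, at 25.8%, have the largest lower share.

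Calls were spread over many genes. Of 17205 genes with an assigned region, 4241 had opening regions and none that closed, 3161 had closing regions and none that opened, 4381 had both and 5422 had no call. The most opening regions were assigned to the phosphodiesterase gene Pde4d, with 37 of 135, then to the ETS repressor gene Etv6 with 32 of 80, Foxp1 with 31 of 92, and Cdk6 with 30 of 50. Atp8b4, a phospholipid flippase gene, had 22 of 34 and none that closed. The most closing regions were found at the zinc finger genes Hivep3, with 24 of 58, and Prdm16, followed by Pde4d with 20, Mecom, and the actin-binding protein gene Ablim1 with 17 of 47. Genes with many regions have more chances to be counted.

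Some genes held regions of both directions. At least 3 regions each way were seen at 808 of 17205 genes. Over all regions assigned to a gene 20.9% opened and 15.4% closed. A gene with many regions can thus hold both directions without departing from these shares. Pde4d had 37 opening and 20 closing regions, Foxn3 13 and 13 of 68, Sgms1 13 and 14 of 62, Arhgap26 14 and 12 of 58, and Gse1 12 and 15 of 88.

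**Figure D5:**
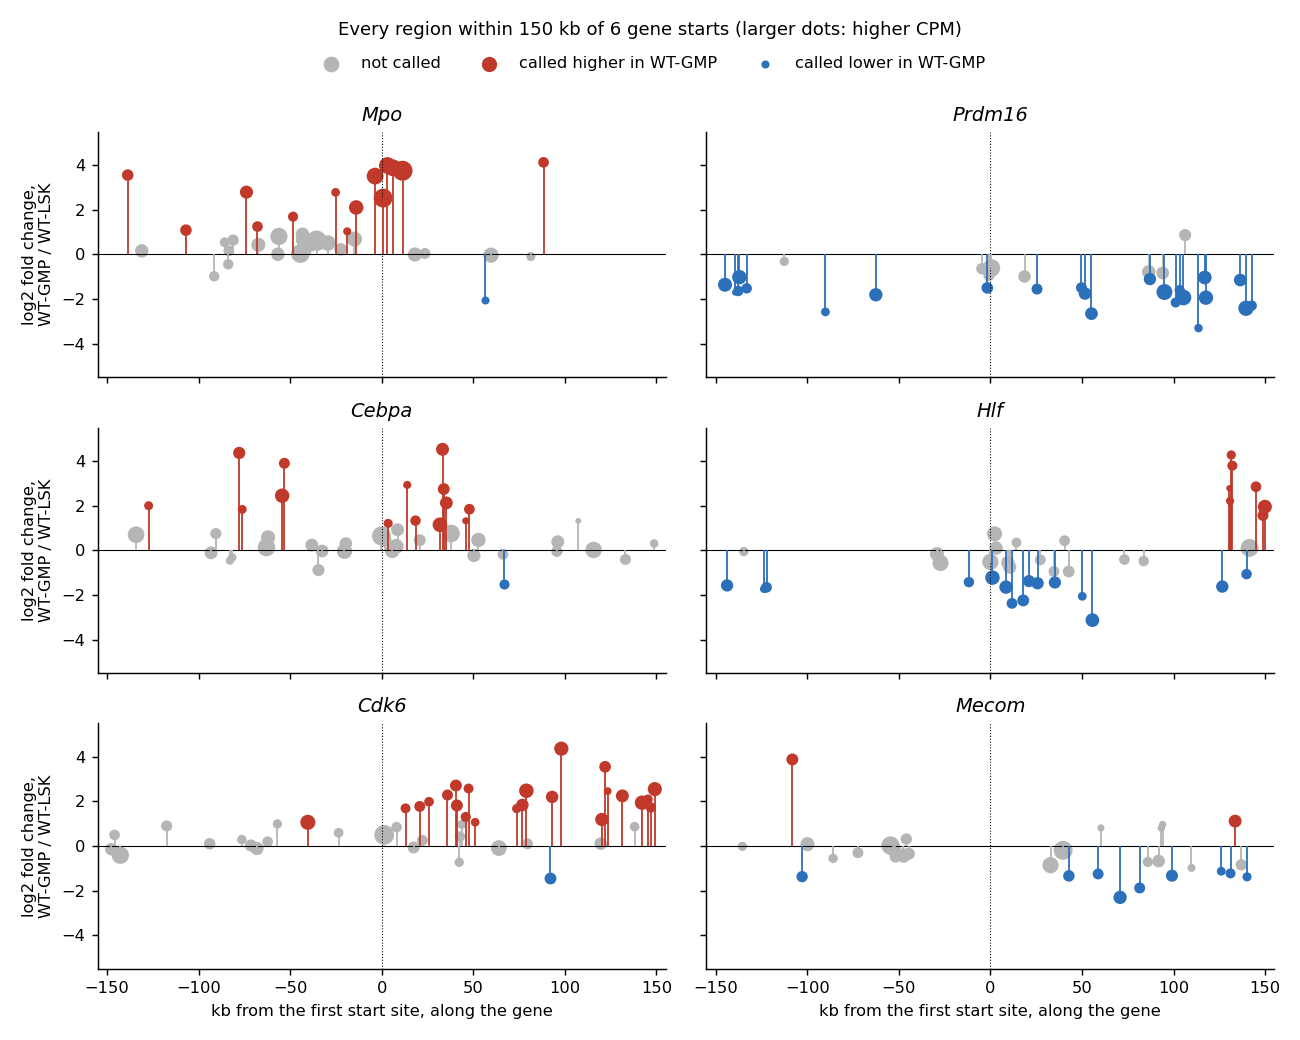
Log2 fold change of every region within 150 kb of the first annotated start of 6 genes, by distance along the gene in kb, with called regions in red (higher in WT-GMP) or blue (lower) and larger dots for higher CPM. Opening and closing regions number 14 and 1 of 36 round Mpo, 14 and 1 of 43 round Cebpa, 23 and 1 of 46 round Cdk6, 0 and 23 of 31 round Prdm16, 7 and 15 of 40 round Hlf, and 2 and 9 of 30 round Mecom, against 21.0% and 16.8% of all regions.

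Whether the same step differed in UREd/d mice was tested as the difference between the 2 log2 fold changes in the same fit. Such a difference does not say whether the genotypes differed in LSK, in GMP or in both. Over all regions 14.0% differed by more than 2-fold at an adjusted p under 0.05. Among 111 regions named by rule or shown for the listed genes, 19 did. At the Spi1 promoter the step was 0.02 (SE 0.22) in WT and 2.15 (SE 0.24) in UREd/d mice, a difference of 2.13 (SE 0.33, adjusted p = 5.10e-04, edgeR). The leading region of Mmp8 opened by 2.71 (SE 0.21) in WT and by 4.67 (SE 0.24) in UREd/d mice, and that of Cx3cr1, a chemokine receptor gene of monocytes, by 2.60 (SE 0.24) and 4.49 (SE 0.28). At the leading region of Mpo the difference was 0.18 (SE 0.37, adjusted p = 0.793, edgeR), and at that of Elane 0.97 (SE 0.33, adjusted p = 0.0578, edgeR). Neither was called.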

How the data were processed

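Chromatin accessibility was measured by OmniATAC-seq with KAPA polymerase. Per the study's methods, reads were aligned to GRCm38 with bowtie2, and Genrich peaks of the groups were joined into a common region set. The deposited values are raw counts per region and library, made by the authors. Whether reads or fragments were counted is not given in the sources used here. Region starts were taken as counted from 0 and are written here counted from 1.

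From the counts, edgeR 4.0.16 (R 4.3.3) was fitted to all 12 libraries with TMM scaling, 1 coefficient per group and the quasi-likelihood F test, with Benjamini-Hochberg adjustment over 121336 regions. The filter on low counts removed none. The common biological coefficient of variation was 0.185. SE is the log2 fold change divided by the square root of F. A region was called at an adjusted p under 0.05 and a log2 fold change beyond 1, as in the study. Whether the step differed between genotypes was tested as an interaction. Regions were assigned to the nearest protein-coding start site within 100 kb (GENCODE), promoters lie within 500 bp of one, and motif windows are 300 bases. The members and gene lists were chosen with earlier results of these data known.

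Named regions are, in each direction, the 10 called with the smallest p whose groups do not overlap, the 5 with the largest fold change among those at a mean of at least 4 CPM in the higher group, and the promoter and leading regions of listed genes. Genes with many calls are the 10 first by number of opening, closing or two-way regions, of which the first few are given. The procedure was tested on simulated data. Alternatives were other scalings, GC content and loess offsets, filters, DESeq2 1.42.0, other thresholds, a replicate block and leaving out each library. WT-GMP and WT-LSK libraries of the same number deviated together, with correlations of 0.181, 0.191 and 0.207, so the replicate block took the numbers as pairs. The main fit did not, and its p-values and SEs leave the pairing out. In UREd/d mice the pairing was less clear, with 0.0616, 0.273 and 0.113. There GMP replicate 3 correlated at 0.114 with LSK replicate 1. Summed over the 4 regions of chromosome Y, WT-LSK 1 and WT-GMP 1 had 23.2 and 27.3 CPM, and the other WT libraries 0 to 0.189. In LSK and GMP of UREd/d mice replicates 1 and 3 had 20.6 to 36.3 CPM, and replicate 2 had 0.0867 to 0.140. Each group thus mixed libraries with and without this signal, alike for the same number. Its part in the results was not tested. The labels do not say that libraries of the same number came from the same mouse, and p-values measure the spread between these libraries. Counting limits cover counting error only. A few regions that the naming rule gives are not reported here.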

Additional observations from a re-analysis of the deposited data

Results flagged for a closer look

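At 19 of the 111 named regions the LSK to GMP step differed between WT and UREd/d mice by the interaction test of edgeR and 18 of them (adjusted p 5.10e-04 to 0.0379) are given here as the UREd/d minus the WT log2 fold change with its SE.

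The step was larger in UREd/d mice at several myeloid loci. A larger step can start from a lower level in LSK or end at a higher level in GMP. Levels in the UREd/d libraries are not given here, so a larger step does not mean a more open locus in UREd/d GMP. The difference was 2.60 (SE 0.53) at the Csf1r promoter, 2.13 (SE 0.33) at the Spi1 promoter and 1.03 (SE 0.31) at the Cebpe promoter. At leading regions it was 2.03 (SE 0.37) for S100a8, 1.96 (SE 0.31) for Mmp8, 1.59 (SE 0.40) for S100a9 and 1.94 (SE 0.35) for Prss57, a serine protease gene of granules. For the monocyte genes Cx3cr1 and Ly6c2 it was 1.90 (SE 0.37) and 1.84 (SE 0.37).

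The step was more negative in UREd/d mice at the leading regions of Klf4 (-2.26, SE 0.70) and Hoxa9 (-1.26, SE 0.21). At Vwf, the von Willebrand factor gene, the leading region had a step of 2.04 (SE 0.27) in WT and -0.70 (SE 0.55) in UREd/d mice, a difference of -2.75 (SE 0.63).

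At 6 regions named for their WT values the step was smaller in UREd/d mice. The difference was -1.61 for Kcnrg, -2.93 for Eif4g2 and -2.14 for Bbs9, which opened, and 1.45 for Nup214, 2.47 for Opcml and 1.47 for 2610301B20Rik, which closed. These were chosen for a small p or a large fold in WT, so a smaller value in other libraries is no independent finding.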

How the results depend on the processing

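Regions with low counts set the number of calls. With a mean of at least 2 CPM 11497 regions opened and 10761 closed. A test against a 2-fold change (glmTreat) gave 17407 opening and 10945 closing regions (61.4% opening), and no fold threshold 36683 and 34714 (51.4%). Leaving out 1 library at a time gave 22415 to 24685 opening and 20573 to 25938 closing regions. The replicate block gave 25339 and 20769, and with GC content offsets 24543 and 21899, and the pairing changed no call among 111 named regions. DESeq2 gave 26255 and 19375, with 12 adjusted p missing. Of 1874 values of named regions under alternatives, 1851 kept their direction and side of the threshold. The Gata2 leading region passed 2-fold in 6. The sign turned in 17, at 3 regions with no detectable difference under the main settings. The Kit promoter was at -0.016 with library size only, -0.0065 with loess offsets and -0.0062 at a mean of at least 2 CPM, and at -0.143 to 0.034 without 1 library. The Spi1 promoter was at -0.046 with library size only and -0.035 at a mean of at least 2 CPM, and at -0.107 to -0.0035 without 1 library. The Spi1 upstream element was at -0.00093 (without WT-LSK replicate 1) to 0.118 without 1 library, and at 0.33 (adjusted p = 0.0252, edgeR) with the replicate block and GC content offsets. The cause was not tested. Without WT-GMP replicate 3 the median of all regions was -0.13, and without each other WT library in turn it was -0.0975 to -0.0676. With 3 counts at 0.0603 to 0.126 CPM, levels near these limits are not resolved.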
